A study of Homo sapiens with 12 samples.

Results

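The genes described here are the 7 that encode the cyclin-dependent kinase (CDK) inhibitors, and they were read in LNCaP prostate cancer cells depleted of SMARCA4 (BRG1). They are the CIP/KIP genes CDKN1A, CDKN1B and CDKN1C and the INK4 genes CDKN2A, CDKN2B, CDKN2C and CDKN2D. They were taken as the rows of the TPM table whose Ensembl identifier carries one of these symbols, which gave 7 of 63568 genes, and each of the 7 matched 1 row. The family was chosen by measured values, because CDKN1A lay on opposite sides of the control with the 2 SMARCA4 siRNAs. For that reason the values of CDKN1A with either siRNA are a description with no test, whereas the other 6 genes were tested.

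CDK inhibitors hold back the kinases that drive the cell cycle. The CIP/KIP proteins p21, p27 and p57, encoded by CDKN1A, CDKN1B and CDKN1C, bind whole cyclin-CDK complexes, above all those of CDK2. The INK4 proteins bind CDK4 and CDK6 alone and keep D-type cyclins from them. CDKN1A is switched on in the response to DNA damage and other stresses, and CDKN2A and CDKN2B lie side by side in a chromosomal region that Polycomb proteins silence in many dividing cells.

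RNA was sequenced from LNCaP cells, an established line from a lymph node metastasis of prostate cancer, in 12 libraries. Cells received a non-targeting siRNA pool (si-NT) or 1 of 2 single siRNAs against SMARCA4, the gene of a catalytic ATPase of the SWI/SNF chromatin remodelling complexes, and were collected at 72 h or, after a split and a further transfection at 72 h, at 144 h. Each siRNA and time point had 2 libraries. The SMARCA4 siRNAs are named here siRNA 2 and siRNA 3, as the columns of the table number them, and the labels of 1 library at 72 h disagree on which of the siRNAs it received, while both place it among the depleted cells. All cells were of the same line and none went without transfection. Nothing in the labels says whether replicates came from separate cultures, so the p-values measure only the spread between these libraries, which may be technical.

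The values are TPM, a length-corrected share of the transcripts of each library, so read depth is unknown and no counting error can be given. Each library listed 14706 to 15355 genes at 1 TPM or more. SMARCA4 itself fell by 76.1% with siRNA 2 and by 78.5% with siRNA 3 at 72 h (adjusted p = 0.00288 and 0.00185 in limma). At 144 h it fell by 84.1% with siRNA 2 and fell by 85.7% with siRNA 3 (adjusted p = 0.000173 and 0.000184). Between the 2 siRNAs the SMARCA4 difference was -0.14 on the log2 scale at 72 h (adjusted p = 0.889) and -0.17 at 144 h (adjusted p = 0.738). All 8 luminal prostate markers examined, among them KLK3 and KRT18, were at 58.2 TPM or more in every library, and of 9 markers of basal, stromal, blood and endothelial cells 8 stayed under 1 TPM throughout. The exception was the collagen gene COL1A1, at up to 9.11 TPM, while CD3E and COL1A2 were listed at 0 in all 12 libraries.

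The sequences before the start sites of CDKN1A, CDKN2A and CDKN2B are shown because these are the genes whose levels parted from si-NT. The set of RefSeq start sites (GRCh38.p14) used here covered 6 of the 7 genes, all but CDKN1C, in 9 windows. Each window printed here holds the 250 bases before the start, read 5′ to 3′ on the strand of the gene. Capitals mark the GC box, GGGCGG on either strand, the core of the site bound by Sp1-type factors, with overlapping matches counted apart. The windows lie at chr6:36678464-36678713 on the plus strand for CDKN1A, at chr9:22009306-22009555 on the minus strand for CDKN2B, and on the minus strand for CDKN2A at chr9:21974858-21975107 (the start used by p16) and chr9:21995325-21995574 (the start used by p14ARF).
CDKN1A: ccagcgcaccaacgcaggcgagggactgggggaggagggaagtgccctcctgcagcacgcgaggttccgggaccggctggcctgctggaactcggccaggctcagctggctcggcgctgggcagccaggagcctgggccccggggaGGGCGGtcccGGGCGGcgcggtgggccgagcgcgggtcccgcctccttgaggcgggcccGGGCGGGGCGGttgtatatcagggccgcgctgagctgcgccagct
CDKN2B: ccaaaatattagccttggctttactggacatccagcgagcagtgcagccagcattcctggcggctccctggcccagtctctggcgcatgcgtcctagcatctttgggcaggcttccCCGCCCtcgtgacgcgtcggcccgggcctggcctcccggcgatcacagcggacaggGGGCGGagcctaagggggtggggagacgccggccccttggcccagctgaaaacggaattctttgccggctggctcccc
CDKN2A, p16 start: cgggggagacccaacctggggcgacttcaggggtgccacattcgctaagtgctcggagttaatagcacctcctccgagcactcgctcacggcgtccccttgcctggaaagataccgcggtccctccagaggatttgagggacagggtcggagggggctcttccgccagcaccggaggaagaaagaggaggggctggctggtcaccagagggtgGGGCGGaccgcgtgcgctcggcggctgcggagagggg
CDKN2A, p14ARF start: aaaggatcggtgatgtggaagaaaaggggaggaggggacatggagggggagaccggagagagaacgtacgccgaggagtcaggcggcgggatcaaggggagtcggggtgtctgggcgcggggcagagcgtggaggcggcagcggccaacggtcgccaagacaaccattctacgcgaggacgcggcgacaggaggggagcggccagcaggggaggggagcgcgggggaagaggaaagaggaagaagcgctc
The CDKN1A window held 4 GC boxes, CDKN2B held 2, the p16 start held 1 and the p14ARF start held 0. Of 34943 windows of the same length in the RefSeq table, 42.6% held at least 1 GC box, so a match is common. None of these 4 windows held the TATA box letters TATAAA (present in 10.8% of all windows) or the CCAAT box letters CCAAT (32.0%) on either strand. CDKN1A was the richest of the 4 in G and C, at 76.4%, against 66.4% to 66.8% in the others. These matches describe the letters and nothing about which factor was bound in the cells.

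The 7 genes differed widely in level. CDKN1A and CDKN1B held the top ranks in 12 of 12 libraries, with medians of 72.1 and 42.0 TPM, CDKN2A came next in 10 of 12 (median 24.9 TPM), and CDKN1C and CDKN2B were lowest in 12 of 12 (medians 3.99 and 2.39 TPM). CDKN2C (median 16.8 TPM) lay above CDKN2D (13.4 TPM) in 11 of 12 libraries, although their ranges, 12.6 to 22.2 and 11.02 to 19.01 TPM, overlapped. CDKN1C lay above CDKN2B in 9 of 12 libraries, and the exceptions were all depleted libraries. In si-NT cells the pair separated, with CDKN1C at 2.46 to 4.33 TPM and CDKN2B at 0.48 to 1.15 TPM. All 7 passed the filter of 1 TPM in at least 2 libraries. CDKN2B reached 1 TPM in 10 of 12 libraries, and the other 6 genes did so in all 12.

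**Figure D1:**
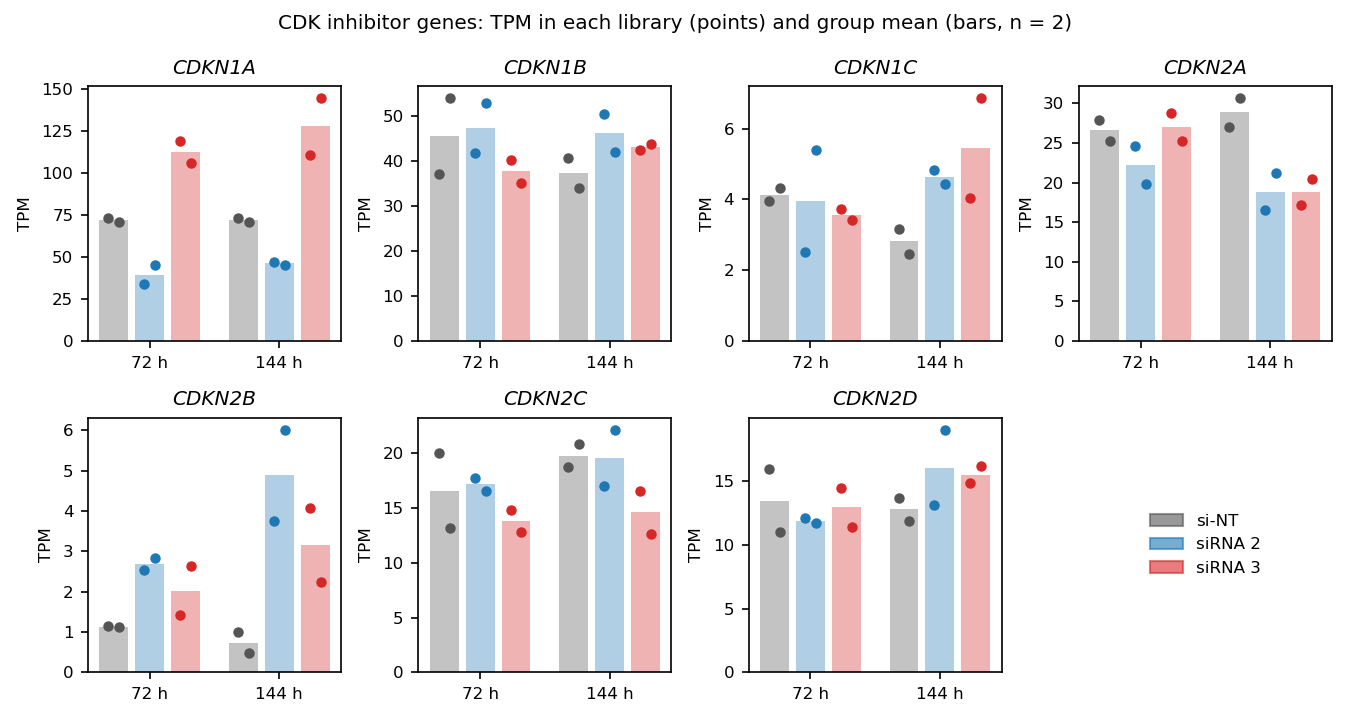
TPM of each CDK inhibitor gene (vertical axes, each panel on its own scale from 0) in si-NT, siRNA 2 and siRNA 3 cells at 72 h and 144 h; points are the 2 libraries of a group and bars their mean. CDKN1A lies below si-NT with siRNA 2 and above it with siRNA 3 at both times, CDKN2A is lower and CDKN2B higher with either siRNA at 144 h, and the other genes overlap si-NT in at least 1 comparison.

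CDKN1A encodes p21, which inhibits CDK2 complexes and binds the replication clamp PCNA. It lies on chromosome 6 at 36644237 to 36655114 (GRCh37, plus strand). In si-NT cells it stood at 73.1 and 71.0 TPM at 72 h and at 73.4 and 70.7 TPM at 144 h, and its difference over time was under 0.01 on the log2 scale (limma, adjusted p = 1). With siRNA 2 it was listed at 34.1 and 45.0 TPM at 72 h and at 47.2 and 45.5 TPM at 144 h. With siRNA 3 it was listed at 119 and 106 TPM at 72 h and at 111 and 145 TPM at 144 h. All 4 siRNA 2 libraries thus lay below, and all 4 siRNA 3 libraries above, every si-NT library, and between time points the siRNA 3 values overlapped while the siRNA 2 values of 144 h lay just above those of 72 h.

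As ratios of mean TPM, CDKN1A was at 0.549 of si-NT with siRNA 2 and at 1.56 times si-NT with siRNA 3 at 72 h. The ratios were 0.644 and 1.77 at 144 h. Between siRNA 3 and siRNA 2 the ratio was 2.85 at 72 h and 2.76 at 144 h, at SMARCA4 levels of 18.3 against 20.4 TPM and 14.4 against 16.0 TPM. On the log2(TPM + 1) scale the values against si-NT were -0.86 and -0.62 with siRNA 2 and 0.63 and 0.81 with siRNA 3, each with a standard error of 0.15. These are the values on which the family was selected, so no p is given for them.

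Among the 16337 genes tested, 69 at 72 h and 67 at 144 h had a larger siRNA 3 minus siRNA 2 difference than the 1.50 and 1.43 of CDKN1A. Genes at least 0.5 below si-NT with siRNA 2 and at least 0.5 above it with siRNA 3 (log2 scale) numbered 13 at 72 h and 22 at 144 h. Those in the opposite arrangement numbered 19 and 17. Only 3 genes held the first arrangement at both time points, namely CDKN1A and the small RNA genes RNU5F-1 and SNORA20, and this limit and these names were chosen after the values were seen.

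The siRNA 3 level of CDKN1A at 144 h depended on the scaling. Scaling each library to its ERCC spike-ins, RNAs added to the total RNA of each sample, moved the median over all tested genes, with siRNA 3 at 144 h, from -0.02 to -0.55 on the log2 scale. On that scale CDKN1A was at 101 and 88.8 with siRNA 3 against 110 and 63.9 in si-NT cells, so these groups overlapped. Spike-in shares differed between replicates at 144 h, at 0.805% and 1.336% with si-NT and at 1.325% and 1.966% with siRNA 3. The source of that spread was not tested. Relative to the median of all genes, its log2 fold change with siRNA 3 at 144 h was 0.82 with TPM and 0.73 with ERCC scaling. With siRNA 2 at 144 h the same 2 values were -0.70 and -0.72. The spike-ins were added to a set amount of total RNA, so this scaling gives neither cell number nor RNA per cell. As these are bulk libraries, a change in the mix of cells cannot be told apart from one within cells.

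The opposite shifts of CDKN1A changed the make-up of the family. CDKN1A supplied 39.5% to 41.3% of the summed TPM of the 7 genes in si-NT libraries, 25.2% to 30.9% with siRNA 2 and 52.8% to 58.6% with siRNA 3. CDKN1A exceeded CDKN1B in 4 of 4 si-NT libraries, in 1 of 4 siRNA 2 libraries and in 4 of 4 siRNA 3 libraries. The other 6 genes summed to between 90.8 and 115 TPM in every library. The INK4 genes together gave 50.4 to 68.4 TPM.

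**Figure D2:**
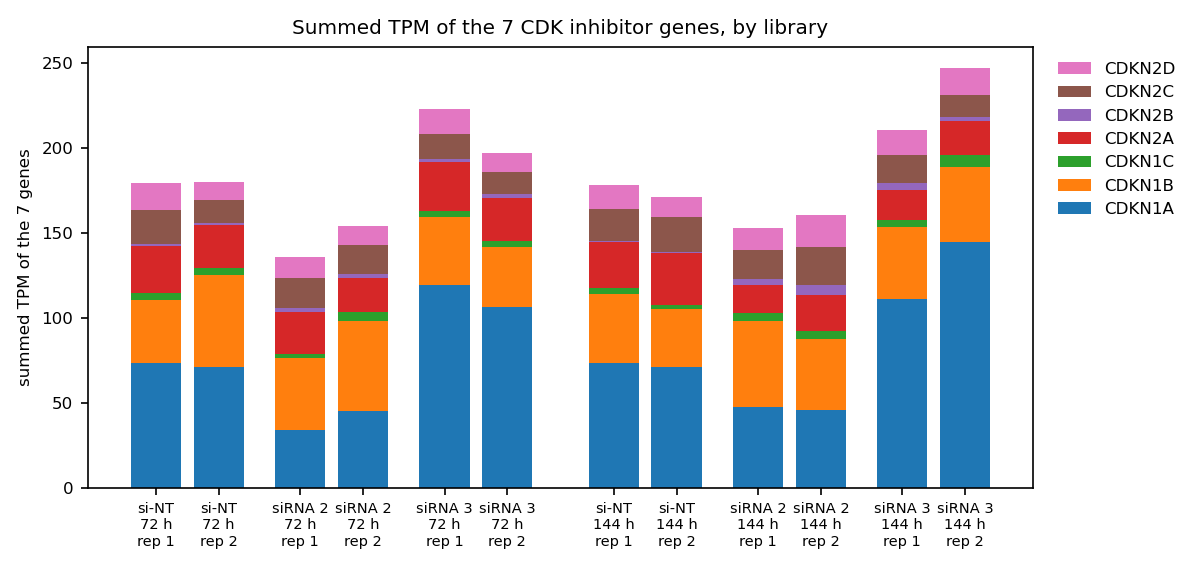
Summed TPM of the 7 CDK inhibitor genes in each of the 12 libraries (vertical axis, TPM; each colour is 1 gene, stacked). The CDKN1A segment at the base is shortest in the siRNA 2 libraries (25.2% to 30.9% of the sum) and tallest in the siRNA 3 libraries (52.8% to 58.6%), while the other 6 together stay between 90.8 and 115 TPM.

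CDKN1B and CDKN1C, the other CIP/KIP genes, did not pass the test with either siRNA at either time. CDKN1B, on chromosome 12 at 12838432 to 12875303 (GRCh37, plus strand), encodes p27, a CDK2 inhibitor whose level is set largely by protein degradation. It stood at 37.3 and 54.1 TPM in si-NT cells at 72 h, against 41.9 and 52.9 TPM with siRNA 2 and 40.4 and 35.3 TPM with siRNA 3. At 144 h it stood at 40.8 and 34.1 TPM in si-NT cells, against 50.5 and 42.1 TPM with siRNA 2 and 42.5 and 43.9 TPM with siRNA 3. The 2 control libraries at 72 h spanned more than the depleted libraries of either siRNA did, and at 144 h all 4 depleted libraries lay above both controls. The log2 fold changes at 144 h were 0.30 with siRNA 2 (95% interval -0.12 to 0.72, adjusted p = 0.287) and 0.21 with siRNA 3 (-0.22 to 0.63, adjusted p = 0.475).

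CDKN1C, on chromosome 11 at 2904443 to 2907005 (GRCh37, minus strand), encodes p57 and is an imprinted gene expressed mainly from the maternal copy. At 72 h it was listed at 3.94 and 4.33 TPM in si-NT cells, 2.50 and 5.40 TPM with siRNA 2 and 3.72 and 3.41 TPM with siRNA 3. At 144 h the values were 3.16 and 2.46 TPM in si-NT cells, 4.83 and 4.43 TPM with siRNA 2 and 4.03 and 6.86 TPM with siRNA 3. The siRNA 2 libraries lay on both sides of the controls at 72 h, whereas all 4 depleted libraries lay above both controls at 144 h. The log2 fold changes at 144 h were 0.57 with siRNA 2 (SE 0.29, adjusted p = 0.187) and 0.73 with siRNA 3 (SE 0.29, adjusted p = 0.103). At this level the pseudocount of 1 makes a log2 difference smaller than that of the TPM themselves.

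The INK4 genes at chromosome 9 were the tested members that changed, and they moved in opposite directions. At 144 h CDKN2A fell and CDKN2B rose with each siRNA. This was 2 of the 6 tested genes, or 1 in each direction, with siRNA 2 and again with siRNA 3, beside 21.3% and 20.2% of all 16337 genes called at an adjusted p under 0.05 in either direction. Both comparisons share the same si-NT libraries. The 2 genes lie on the minus strand with 7601 bases between them, CDKN2A at 21967751 to 21995300 and CDKN2B at 22002902 to 22009304 (GRCh37).

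CDKN2A encodes p16, an INK4 inhibitor of CDK4 and CDK6, and in another reading frame p14ARF, an inhibitor of MDM2. A gene-level TPM sums the transcripts of both, whose starts are shown above. In si-NT cells it stood at 28.0 and 25.3 TPM at 72 h, against 24.6 and 19.8 TPM with siRNA 2 and 28.8 and 25.3 TPM with siRNA 3. At 144 h it stood at 27.04 and 30.7 TPM in si-NT cells, against 16.5 and 21.2 TPM with siRNA 2 and 17.2 and 20.4 TPM with siRNA 3. All 4 depleted libraries at 144 h lay below all 4 si-NT libraries of either time, and mean TPM fell by 34.6% with siRNA 2 and fell by 34.8% with siRNA 3. The log2 fold change was -0.59 with each siRNA at 144 h (SE 0.16), with adjusted p = 0.0279 for siRNA 2 and 0.029 for siRNA 3. These calls were narrow. Leaving out either si-NT library of 144 h gave adjusted p = 0.0693 and 0.173 for siRNA 2 and 0.0745 and 0.173 for siRNA 3. At 72 h the log2 fold changes were -0.26 (95% interval -0.61 to 0.10) and 0.02 (-0.34 to 0.38).

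CDKN2B encodes p15, the INK4 inhibitor best known as a target of TGF-beta signalling, and was the lowest of the 7 genes in control cells. In si-NT cells it was listed at 1.15 and 1.12 TPM at 72 h and at 0.99 and 0.48 TPM at 144 h. With siRNA 2 it was listed at 2.54 and 2.83 TPM at 72 h and at 3.76 and 6.02 TPM at 144 h. With siRNA 3 it was listed at 1.43 and 2.63 TPM at 72 h and at 4.08 and 2.24 TPM at 144 h. All 8 depleted libraries lay above all 4 control libraries. Mean TPM at 144 h was 6.65 times si-NT with siRNA 2 and 4.30 times with siRNA 3. These ratios rest on low control values, and leaving out 1 library at a time gave 4.94 to 10.2 times with siRNA 2 and 3.05 to 6.58 times with siRNA 3, the highest of each without the first si-NT library. On the log2(TPM + 1) scale, which understates changes at such levels, the rise at 144 h was 1.75 with siRNA 2 (SE 0.29, adjusted p = 0.00399) and 1.24 with siRNA 3 (SE 0.29, adjusted p = 0.0181). At 72 h it was 0.79 (adjusted p = 0.212) and 0.48 (adjusted p = 0.556), which did not pass the test. The siRNA 3 call was lost without the second si-NT library of 144 h (adjusted p = 0.129) or the first siRNA 3 library of 144 h (adjusted p = 0.0908).

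CDKN2A and CDKN2B share near-identical exon sequence, so reads may have been divided between them with error, and the way such reads were counted is not given in the sources used here. The antisense gene CDKN2B-AS1 lies on the plus strand at 21994138 to 22128102. It runs across all of CDKN2B but overlaps CDKN2A only at its upstream end. It was listed between 0.33 and 0.98 TPM in every library, under the filter. The library kit keeps strand, but the strand setting of the counting is not given in the sources used here.

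CDKN2C, on chromosome 1 at 51426417 to 51440306 (GRCh37, plus strand), encodes p18. It stood at 20.0 and 13.2 TPM in si-NT cells, 17.8 and 16.6 TPM with siRNA 2 and 14.9 and 12.8 TPM with siRNA 3 at 72 h. At 144 h the values were 18.8 and 20.8 TPM in si-NT cells, 17.1 and 22.2 TPM with siRNA 2 and 16.6 and 12.6 TPM with siRNA 3. The siRNA 2 libraries enclosed the controls at 144 h and the siRNA 3 libraries lay below them, with a log2 fold change of -0.42 for siRNA 3 (SE 0.21, adjusted p = 0.18) that did not pass the test.

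CDKN2D, on chromosome 19 at 10677136 to 10679735 (GRCh37, minus strand), encodes p19, the remaining INK4 protein. At 72 h it stood at 15.9 and 11.02 TPM in si-NT cells, 12.1 and 11.7 TPM with siRNA 2 and 14.4 and 11.4 TPM with siRNA 3, so all depleted libraries fell between the controls. At 144 h it stood at 13.7 and 11.9 TPM in si-NT cells, 13.1 and 19.01 TPM with siRNA 2 and 14.8 and 16.1 TPM with siRNA 3. Its log2 fold changes at 144 h were 0.29 with siRNA 2 (adjusted p = 0.355) and 0.26 with siRNA 3 (adjusted p = 0.406).

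**Figure D3:**
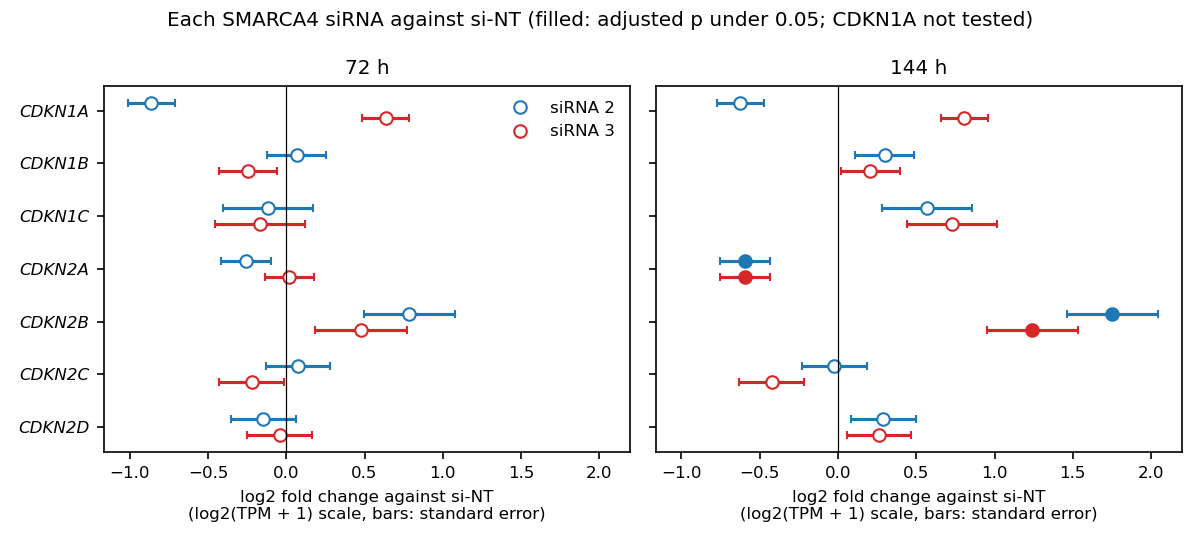
Log2 fold change of each CDK inhibitor gene against si-NT (horizontal axis, log2(TPM + 1) scale) at 72 h and 144 h for siRNA 2 and siRNA 3; bars are 1 standard error and filled points have an adjusted p under 0.05. CDKN1A, drawn without a test, lies at -0.86 and 0.63 at 72 h and at -0.62 and 0.81 at 144 h, and the filled points are CDKN2A (-0.59 with each siRNA) and CDKN2B (1.75 and 1.24) at 144 h.

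At 72 h 0 of the 6 tested genes were called with siRNA 2, where 1.57% of all genes were called, and 0 with siRNA 3, where 0.655% were. At an unadjusted p under 0.05 the counts were 1 and 0. Between the siRNAs 0 of 6 were called at 72 h (0.141% of all genes) and 0 at 144 h (0.331%), with 0 and 0 at an unadjusted p under 0.05. The siRNA 3 minus siRNA 2 difference was widest for CDKN2B at 144 h, at -0.51 (95% interval -1.17 to 0.15, adjusted p = 0.482). For CDKN2A at 144 h it was 0.00 (95% interval -0.36 to 0.36). For CDKN1B it was -0.31 at 72 h (-0.73 to 0.11) and -0.09 at 144 h (-0.51 to 0.33). These intervals leave room for differences between the siRNAs in either direction.

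In si-NT cells 0 of the 7 genes were called between 144 h and 72 h (0.0245% of all genes, 0 of 7 at an unadjusted p under 0.05). The change of the siRNA effect from 72 h to 144 h was called for 0 of 6 genes with siRNA 2 (0.0428% of all genes) and 0 of 6 with siRNA 3 (0.0735%), with 1 gene each at an unadjusted p under 0.05. These were CDKN2B with siRNA 2, whose effect was larger at 144 h by 0.97 (SE 0.41, adjusted p = 0.588), and CDKN2A with siRNA 3, at -0.61 (SE 0.22, adjusted p = 0.305). The passing of the threshold at 144 h and not at 72 h is therefore not shown to be a change over time.

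The targets of the inhibitors were described by a list of 11 cyclin and CDK genes, of which 10 passed the filter. At 144 h 2 of the 10 fell with siRNA 2 and 3 fell with siRNA 3, and 0 rose with either, beside 21.3% and 20.2% of all genes called in either direction. The median log2 fold change of the list was -0.09 with siRNA 2 and -0.24 with siRNA 3, beside 0.07 and -0.02 over all genes. The genes called with both siRNAs were CCNB1, the mitotic cyclin B1, at -0.85 and -0.99 (adjusted p = 0.0152 and 0.00935), and CDK4, the kinase bound by the INK4 proteins, at -0.80 and -0.67 (adjusted p = 0.00258 and 0.00669). At 72 h 0 of the 10 were called with either siRNA. The 2 si-NT libraries of 72 h lay apart for some of them, such as CDK1 at 330 and 131 TPM, though not CDK4 at 318 and 338 TPM. In si-NT cells all 10 were higher at 144 h than at 72 h (median 0.36), with 0 called. The change of the siRNA effect from 72 h to 144 h was called for 0 of the 10 with either siRNA. Over this list and those below, 2 of 18 calls with siRNA 2 at 144 h (CKS1B and FAS) and 10 of 17 with siRNA 3 held with ERCC scaling. Of 6 other genes whose products restrain or bind CDKs, such as WEE1 and CDKN3, 0 were called in any comparison, with medians at 144 h of -0.06 with siRNA 2 and -0.25 with siRNA 3.

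Genes of the ubiquitin ligases that degrade p21 and p27, with their cofactors, numbered 10, and all 10 were tested. At 144 h 4 fell and 1 rose with siRNA 2, and 5 fell and 1 rose with siRNA 3, where 21.3% and 20.2% of all genes were called. The list median was -0.17 and -0.31, beside 0.07 and -0.02 over all genes. The genes that fell with both were DTL (-1.19 and -1.12), which brings PCNA-bound p21 to the CUL4 ligase, CKS1B (-1.38 and -0.93) and SKP2 (-0.50 and -0.71), which recognise phosphorylated p27, and PCNA (-0.86 and -0.90). With ERCC scaling the siRNA 2 calls of DTL (adjusted p = 0.0969), SKP2 (0.408) and PCNA (0.197) were lost. DDB1, the CUL4 adaptor, named after its values were seen, rose (0.53 and 0.36). With ERCC scaling its value with siRNA 3 turned to -0.27, which was 0.29 above the median of all genes. The ligases act on p21 and p27 as proteins, and a link of these values with CDKN1A RNA was not tested.

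**Figure D4:**
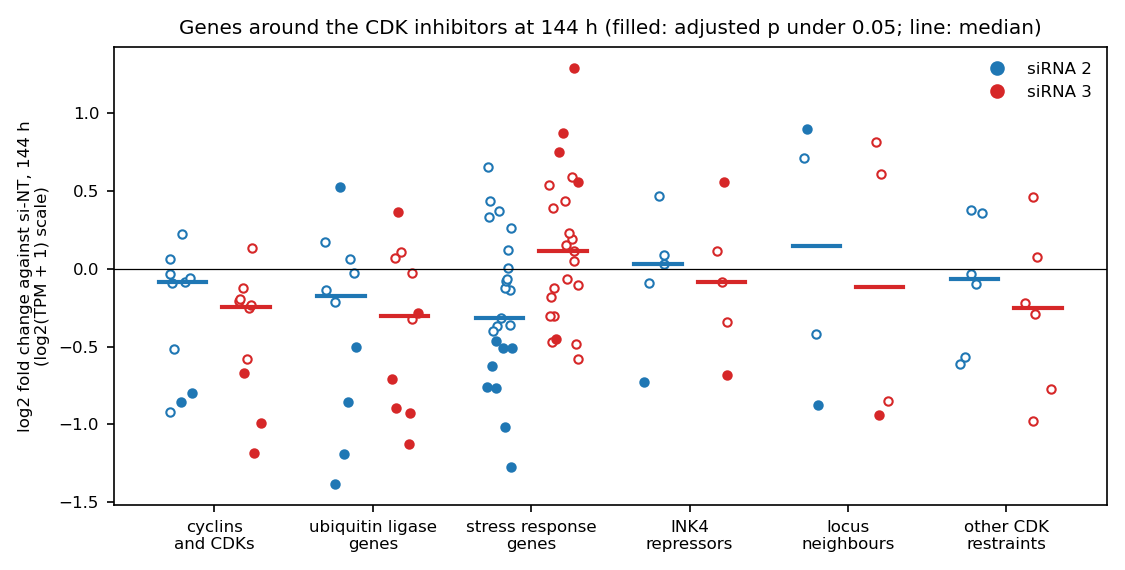
Log2 fold change against si-NT at 144 h (vertical axis, log2(TPM + 1) scale) for the tested genes of 6 lists around the CDK inhibitors, with siRNA 2 and siRNA 3; each point is a gene, filled at an adjusted p under 0.05, and lines are list medians. In the stress response list 8 filled points lie below 0 with siRNA 2, and 4 above and 1 below with siRNA 3.

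CDKN1A belongs to a set of genes that are switched on by DNA damage and other stresses, and 23 others of that set formed a list of stress response genes, all tested. At 72 h 1 gene fell with siRNA 2 (AEN, a nuclease of apoptosis) and 1 rose with siRNA 3 (FDXR, a mitochondrial reductase), and the list medians were -0.26 and 0.30 beside 0.05 and 0.06 over all genes. At 144 h 8 fell and 0 rose with siRNA 2, and 1 fell and 4 rose with siRNA 3, beside 21.3% and 20.2% of all genes called. The medians were -0.32 and 0.12, beside 0.07 and -0.02 over all genes. The death receptor gene TNFRSF10B fell with both siRNAs at 144 h, by 0.51 and 0.45 on the log2 scale. The genes that rose with siRNA 3 included PHLDA3 (0.75) and BTG2 (0.56), named after their values were seen. With ERCC scaling 0 genes of the list were called higher with siRNA 3 at 144 h, PHLDA3 was at 0.12 and BTG2 at -0.07.

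The direct difference between the siRNAs was tested for this list, although not independently of the choice of the family. That choice rested on CDKN1A, but these genes were read in the same libraries and listed with earlier results known. Their p-values are therefore no separate evidence for the CDKN1A difference. Of the 23 genes, 21 were higher with siRNA 3 than with siRNA 2 at 72 h and 19 at 144 h, with medians of 0.55 and 0.44 beside 0.01 and -0.10 over all genes. At each time 3 of the 23 passed the test, all higher with siRNA 3, where 0.141% and 0.331% of all genes were called. AEN was at 17.4 and 15.2 TPM with siRNA 2 and at 30.2 and 32.4 TPM with siRNA 3 at 72 h, around 25.6 and 23.8 TPM in si-NT cells, a difference of 0.90 (SE 0.11, adjusted p = 0.0117). FDXR was at 16.6 and 16.4 TPM with siRNA 2 and at 33.2 and 33.1 TPM with siRNA 3 at 72 h, around 20.4 and 17.9 TPM in si-NT cells, a difference of 0.96 (SE 0.11, adjusted p = 0.00728). Against si-NT at 72 h, AEN with siRNA 3 (0.33, adjusted p = 0.228) and FDXR with siRNA 2 (-0.20, adjusted p = 0.384) did not pass the test.

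At 144 h the differences were 0.71 for AEN (adjusted p = 0.0367) and 0.66 for FDXR (adjusted p = 0.0484). The third gene called was SPATA18 at 72 h (0.82, adjusted p = 0.04996) and DDB2 at 144 h (0.91, adjusted p = 0.0368), and these 4 names were chosen after the values were seen. AEN, with 22.3 and 23.2 TPM, lay below its si-NT values of 27.3 and 29.4 TPM with siRNA 3 at 144 h as well. With ERCC scaling the median of the list at 144 h was -0.02, which was 0.47 above that of all genes, and 0 of the 23 were called. At 72 h it was 0.72 with ERCC scaling, and 0 of the 23 were called there either. The direction of the list at 144 h is therefore one relative to the other genes of the cells.

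**Figure D5:**
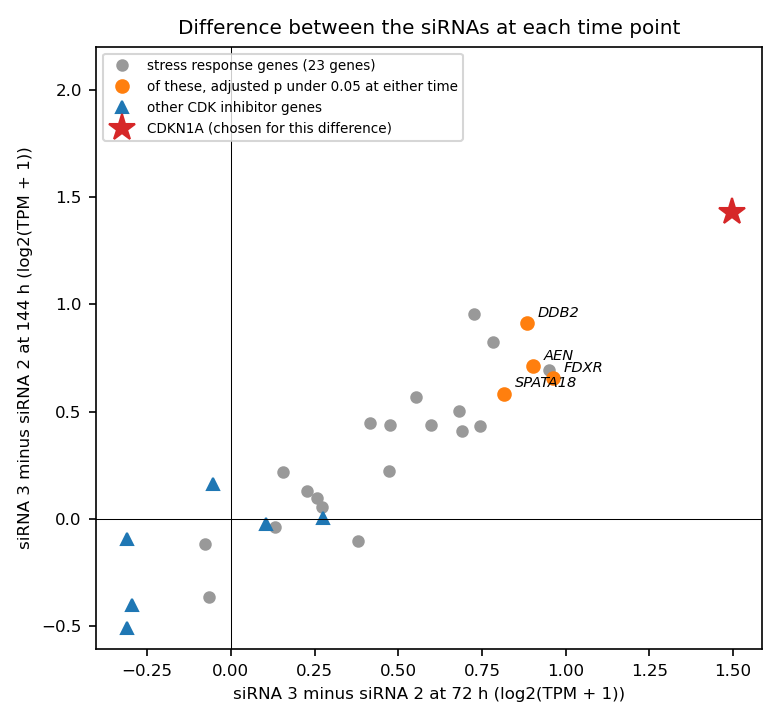
Difference between siRNA 3 and siRNA 2 (log2(TPM + 1)) at 72 h (horizontal axis) and 144 h (vertical axis) for the stress response genes (circles, orange where the adjusted p was under 0.05 at either time), the 6 other CDK inhibitor genes (triangles) and CDKN1A (star). CDKN1A lies at 1.50 and 1.43, 21 and 19 of the 23 circles lie above 0 at 72 h and 144 h, and the triangles lie between -0.51 and 0.28.

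The list of genes whose products repress the INK4 genes, mainly Polycomb and T-box factors, had 6 members, of which 5 were tested. At 144 h 1 fell and 0 rose with siRNA 2, and 1 fell and 1 rose with siRNA 3, beside 21.3% and 20.2% of all genes called. The medians were 0.03 and -0.09, beside 0.07 and -0.02 over all genes. EZH2, the Polycomb methyltransferase, fell at 144 h with both siRNAs, by 0.73 (adjusted p = 0.0194) and 0.69 (adjusted p = 0.025). CBX7, named after its values were seen, rose with siRNA 3 (0.56, adjusted p = 0.0389). With ERCC scaling it turned to -0.03, which was 0.53 above the median of all genes. With siRNA 2 at 144 h CBX7 did not pass the test, but stood at 11.01 and 12.19 TPM against 8.46 and 7.72 TPM in si-NT cells. Among the neighbours of the family at its loci, 6 of 7 were matched and 4 tested. At 144 h 1 of these fell and 1 rose with siRNA 2, and 1 fell and 0 rose with siRNA 3. MTAP, a methionine salvage gene next to CDKN2A on chromosome 9 at 21802635 to 21937650 (GRCh37, plus strand), fell at 144 h with both siRNAs, by 0.88 (adjusted p = 0.00443) and 0.94 (adjusted p = 0.00423). It stood at 29.3 and 30.7 TPM in si-NT cells, 16.1 and 15.6 TPM with siRNA 2 and 17.9 and 12.8 TPM with siRNA 3. In the order MTAP, CDKN2A, CDKN2B along the chromosome, the first pair were thus lower and the last higher at 144 h. KCNQ1, a neighbour of CDKN1C also named after its values were seen, rose with siRNA 2 at 144 h (0.90, adjusted p = 0.0295). With siRNA 3 KCNQ1 did not pass the test, but stood at 5.78 and 4.53 TPM against 3.14 and 2.88 TPM in si-NT cells.

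The genes whose log2(TPM + 1) most resembled that of CDKN1A over the 12 libraries, among 10982 genes with a mean of at least 5 TPM, were COMMD5 (Pearson r = 0.951), SOX12 (0.931), CNNM3 (0.922), PSMC5 (0.920) and BLVRA (0.918). COMMD5 was at 14.4 to 18.3 TPM with siRNA 2, 26.0 to 31.1 TPM in si-NT cells and 33.1 to 44.8 TPM with siRNA 3, so its groups did not overlap either. The most opposed were FAM32A (-0.939), VPS26C (-0.921) and MOCS3 (-0.902). The libraries fall into siRNA groups that these r values share, so they describe likeness of pattern and carry no test. For the other members with a mean of at least 5 TPM the 3 closest were ADPRM, MT-CYB and KLF4 for CDKN1B (r from 0.903 to 0.931), MAIP1, CCDC34 and TBRG4 for CDKN2A (0.949 to 0.961), SPINDOC, ZDHHC18 and NXPH4 for CDKN2C (0.897 to 0.911) and PAQR4, HPS6 and GAMT for CDKN2D (0.871 to 0.902).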

How the data were processed

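Poly(A) RNA with ERCC spike-ins was sequenced from 12 LNCaP libraries with a strand-keeping kit. Per the submitters' processing notes and the study's methods, the authors trimmed reads with Trim Galore 0.11.2, checked them with FastQC, aligned them to GRCh37 (hg19) with STAR 2.4.0j, counted them per gene and deposited TPM. The table held 63568 genes and 92 spike-ins, and spike-ins made up 0.805% to 1.97% of a column. All columns had the same total, so the ERCC normalisation that the methods describe is not kept in them. The depth behind a TPM value is unknown. Symbols and GRCh37 positions come from GENCODE release 44 lifted to that build.

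Here log2(TPM + 1) of 16337 genes, those at 1 TPM or more in 2 or more libraries, was fitted in limma 3.58.1 (R 4.3.3) with 6 groups and a mean-variance trend, tested two-sided and adjusted by Benjamini-Hochberg over all genes. A gene was called at an adjusted p under 0.05. The fit was tested on simulated data. Alternatives were a pseudocount of 0.1, other filters, 3 other scalings, no trend, the libraries of 1 time point, a replicate block and each library left out. Tables and figures used Python 3.11.15, pandas 2.3.3 and matplotlib 3.10.9. Groups came from the labels and siRNA numbers from the table's columns. The named genes are the 7 members, the 5 most and 3 least like CDKN1A, the 3 most like each other member with a mean of at least 5 TPM, and at most 4 genes a list called with both siRNAs at 144 h. Other list genes were named after their values were seen. The members and lists were chosen with earlier results of these data known, and some genes of the lists are not reported here.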

Additional observations from a re-analysis of the deposited data

Results flagged for a closer look

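CDKN1A was marked for a closer look because both siRNA 2 libraries and both siRNA 3 libraries lay on opposite sides of si-NT at each time point. Its siRNA 3 minus siRNA 2 difference was 1.50 at 72 h and 1.43 at 144 h on the log2(TPM + 1) scale. The difference was not tested, since the family was selected on it. Beside it, SMARCA4 differed between the siRNAs by -0.14 and -0.17, and the stress response list had medians of 0.55 and 0.44. The part of either in the CDKN1A difference was not tested.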

How the results depend on the processing

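Over the single-gene values other than CDKN1A against si-NT, 1172 of 1200 counted as unchanged under the alternatives. Tested values counted so if they stayed on their side of the threshold, called ones with their direction kept as well. Untested values had to keep direction and move by less than the spread between replicates. An uncalled value could thus change sign, as CDKN1B with siRNA 3 at 144 h did, from 0.21 to -0.42 with ERCC scaling. Of the 2 members called at 144 h with siRNA 2, 1 was left with no filter (33048 genes), with a mean of at least 5 TPM (where CDKN2B was not tested) or with ERCC scaling, and 1 to 2 when a library was left out. With siRNA 3, 0 were left with no filter, 1 with a mean of at least 5 TPM, 1 with median-of-ratios scaling and 1 with ERCC scaling, and 0 to 3 when a library was left out. CDKN2B with siRNA 2 was called in all 20 alternatives that tested it (adjusted p up to 0.0418), and CDKN2B with siRNA 3 was lost with no filter (0.0579) and ERCC scaling (0.122). CDKN2A was lost with no filter (0.0617 for siRNA 2 and 0.0645 for siRNA 3), with ERCC scaling for siRNA 2 (0.311) and with median-of-ratios scaling for siRNA 3 (0.0506). It was also lost without either si-NT library of 144 h, without the first siRNA 2 library of 144 h (0.172) for siRNA 2, and without either siRNA 3 library of 144 h (0.126 and 0.0709) for siRNA 3. CDKN1C with siRNA 3 at 144 h was called without either siRNA 2 library of 72 h (0.041 and 0.0416). The cause of these changes was not tested.

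CDKN1A against si-NT, left out of that count, kept its direction in every alternative. By the rule for untested values it moved in 3 alternatives with siRNA 2 and 0 with siRNA 3 at 72 h. At 144 h it moved in 1 with siRNA 2 and 3 with siRNA 3. With ERCC scaling it was -1.14 with siRNA 2 at 72 h, -0.79 with siRNA 2 at 144 h and 0.17 with siRNA 3 at 144 h. With a library left out it ranged from -1.06 to -0.67, from -0.65 to -0.60 and from 0.62 to 1.00 in these comparisons, and from 0.55 to 0.71 with siRNA 3 at 72 h. Its untested change of the siRNA 3 effect from 72 h to 144 h, 0.17, turned to -0.35 with ERCC scaling and ranged from -0.016 to 0.36 with a library left out. Of its 5 most alike genes by Pearson r, 3 were among the 5 by Spearman's rho. The replicate block, a term for the replicate number, left 2 members called with each siRNA at 144 h and 0 in the other comparisons. Deviations of same-numbered libraries correlated between -0.229 and 0.300 over 15 pairs of groups, and the labels give no shared culture or day, so the numbers were taken as names. Of 43 calls in the lists, 41 held with median-of-ratios scaling, 43 with quantile normalisation and 12 with ERCC scaling, under which 40 kept their direction. The differing spike-in shares of replicates enter the spread under ERCC scaling.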
